A study of Arabidopsis thaliana with 20 samples.

Results

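WRKY18 (AT4G31800), WRKY40 (AT1G80840) and WRKY60 (AT2G25000) are the 3 genes of group IIa of the Arabidopsis WRKY transcription factors, and they were followed by their locus identifiers, 3 of 33602 genes counted. Membership of group IIa, and no measured value, decides which genes belong to the set. RNA was sequenced from whole rosettes of Arabidopsis thaliana aged 3 weeks, each library a pool of 5 plants, in a study of the transcriptional reprogramming that apoplastic reactive oxygen species set off and of the parts that WRKY25, WRKY33 and WRKY75 play in it. Plants received 350 ppb ozone for 2 h or were left as untreated controls. There were 20 libraries in 6 groups: 4 per treatment from Col-0, the wild type, and 3 per treatment each from the wrky25 wrky33 double mutant and from the wrky75 mutant. No group carried a lesion in a group IIa gene, and the labels do not name the mutant alleles. Each library held 20486137 to 20771667 counts. The labels call the pools biological replicates and do not say whether they were grown at separate times, so p-values measure the spread between these pools.

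WRKY factors bind the W-box, a short promoter element with the core TTGAC, through a domain named after its signature heptapeptide. Group IIa factors also carry a leucine zipper, by which they pair with themselves and with each other. In Arabidopsis, WRKY18 and WRKY40 act in partly overlapping ways, mostly as negative regulators of defence against powdery mildew, and all 3 genes have roles in abscisic acid responses. WRKY40 is also known as a repressor of nuclear genes that respond to mitochondrial and chloroplast dysfunction.

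The coding sequence of the heptapeptide, where the domain touches DNA, shows how close the 3 genes are in bases. The lines below, read from the RefSeq transcripts on TAIR10.1, give the 21 coding bases of the heptapeptide in capitals with 9 bases on each side in lower case.
WRKY18: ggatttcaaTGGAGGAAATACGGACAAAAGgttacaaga
WRKY40: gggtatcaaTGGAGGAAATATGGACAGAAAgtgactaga
WRKY60: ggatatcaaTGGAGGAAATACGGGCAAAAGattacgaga
WRKY18 and WRKY60 differed at 1 of the 21 bases, WRKY18 and WRKY40 at 3, and WRKY40 and WRKY60 at 4. All 3 stretches encode the same heptapeptide, so none of these base differences changes a residue. Identity over the whole translated coding sequence was taken as the share of alignment columns, gap columns included, that held the same residue. It was 58.9% for WRKY18 and WRKY60, 41.3% for WRKY18 and WRKY40, and 38.3% for WRKY40 and WRKY60. The longest run of identical coding bases between any pair was 18, between WRKY18 and WRKY60.

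Promoter sequence is shown next because all 3 genes carry close groups of W-boxes. The 1000 bases before each RefSeq gene start were searched on both strands for TTGACC and TTGACT, and the lines give the densest group of each gene on the plus strand, the strand of all 3 genes, with each W-box in capitals. A W-box on the other strand reads GGTCAA or AGTCAA here. Neighbouring boxes that touch, as in WRKY40, or share a base, as in WRKY60, run together.
WRKY18, chr4:15382029-15382074: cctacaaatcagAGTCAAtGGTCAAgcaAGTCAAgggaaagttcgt
WRKY40, chr1:30382736-30382771: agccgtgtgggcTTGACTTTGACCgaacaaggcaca
WRKY60, chr2:10629013-10629055: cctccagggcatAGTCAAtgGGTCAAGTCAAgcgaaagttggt
WRKY18 had 3 W-boxes within 22 bases, the first 736 bases before the gene start, and WRKY60 had 3 within 19 bases, the first 637 bases before. WRKY40 had 2 within 12 bases, the first 813 bases before. Among 27443 promoters of the same length, 0.31% held at least 3 W-boxes within 40 bases and 6.97% held at least 2. The shorter core TTGAC occurred 3 times in the WRKY18 window, 4 times in that of WRKY60 and 7 times in that of WRKY40. Counts that high were found in 40.1%, 20.8% and 1.45% of promoters. These counts depend on the start used. In the 1000 bases before the start of the gene in the count files, which lies further downstream, WRKY18 had 1 W-box and 1 core, and the group shown lay outside. WRKY40 had 2 W-boxes and 6 cores there, and WRKY60 3 W-boxes and 6 cores. Of the 85 genes with 3 W-boxes within 40 bases, WRKY18 and WRKY60 included, 59 were tested. Under ozone in Col-0, 30 of these 59 (50.8%) rose and 12 (20.3%) fell, against 33.3% and 36.4% of all 19954 genes tested. The 40-base window was chosen after the sites had been seen, so these shares are a description. The presence of a motif says nothing of whether a factor was bound.

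The counted gene of WRKY18 spans chr4:15383201-15385029, that of WRKY40 chr1:30383691-30385499 and that of WRKY60 chr2:10629737-10631413, all on the plus strand. Their RefSeq transcripts have 5, 4 and 5 exons and coding lengths of 933, 909 and 816 bases. The 3′ end of WRKY40 overlaps AT1G80850, a gene on the minus strand, by 51 bases, and the library kit does not mark strand. AT1G80850 was at 14.3 ± 2.18 counts-per-million (CPM) in Col-0 controls and at 6.60 ± 0.962 CPM in Col-0 under ozone (SD, n = 4 each), so it was lower where WRKY40 was higher.

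The libraries had the markers of a rosette. The summed level of 3 mesophyll genes was 24080.1 to 35901.2 CPM in control libraries and 12149.4 to 22122.9 CPM under ozone, and ATML1 of the epidermis went from between 82.0 and 101.3 CPM to between 37.1 and 59.8 CPM. SUC2 of the phloem companion cells was between 187.0 and 268.4 CPM. Flower and seed markers summed to at most 2.82 and 0.201 CPM. The 2 root markers differed: PYK10 was between 16.6 and 79.8 CPM, while RHD6 had 1 count in wrky75 under ozone and 0 in the other groups. Of the guard cell markers in Col-0, MYB60 went from 13.1 to 7.03 CPM under ozone and FAMA from 21.6 to 22.5 CPM. In bulk rosettes fewer cells of a type and less RNA per cell cannot be told apart, and the part of cell composition in the results below was not tested. Counts of the mutated genes did not check the labels, since the alleles are not named and gene counts can hold reads from a disrupted transcript. Under ozone WRKY75 was at 84.1 ± 41.0 CPM in Col-0 (SD, n = 4) and 52.3 ± 22.6 CPM in wrky75 (SD, n = 3). WRKY25 was at 122.1 CPM in Col-0 and 193.2 CPM in wrky25 wrky33, and WRKY33 at 519.2 and 331.3 CPM. Without ozone the same genes were at 0.483 and 0.361 CPM, 12.5 and 4.09 CPM, and 21.4 and 13.5 CPM.

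WRKY40 showed the widest range of the 3 genes: it was low in control rosettes and became one of the most abundant WRKY transcripts after 2 h of ozone. In Col-0 controls it stood at 2.56, 2.96, 2.64 and 1.32 CPM in replicates 1 to 4, which rest on 51, 62, 54 and 29 counts. In Col-0 under ozone it stood at 388.06, 496.81, 474.12 and 451.79 CPM. All 4 ozone libraries lay far above the 4 controls, and 29.3% of genes had ozone libraries that were all above the controls. The log2 fold change was 7.58 ± 0.53 (SE) with an adjusted p of 7.75e-10 by edgeR's quasi-likelihood test with Benjamini-Hochberg adjustment over all genes, and 99.69% of genes had a lower one. An adjusted p under 0.05, the threshold for a call, was reached by 69.7% of genes in this comparison, and 33.3% rose.

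The same step was seen in both mutants. In wrky25 wrky33 WRKY40 went from 0.99, 1.35 and 2.28 CPM to 286.38, 290.67 and 254.57 CPM, a log2 fold change of 7.49 ± 0.62 (adjusted p = 1.3e-08, edgeR). In wrky75 it went from 0.60, 10.82 and 4.73 CPM to 463.44, 462.72 and 429.5 CPM, a log2 fold change of 6.38 ± 0.58 (adjusted p = 2.68e-08, edgeR). Groups with and without ozone did not overlap in either mutant, as was so in this direction for 33.9% of genes in wrky25 wrky33 and 33.4% in wrky75. The shares of genes called were 65% in wrky25 wrky33, with 31.1% higher and 33.9% lower, and 68.1% in wrky75, with 32% higher and 36.1% lower. Replicates under ozone were close, with a coefficient of variation of 10.3%, 7.11% and 4.29% in Col-0, wrky25 wrky33 and wrky75. Control libraries spread more, at 30.4%, 43.1% and 95.5%.

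WRKY18, the partner of WRKY40 in much of the genetic work on the group, started from a higher level and rose by a smaller factor. It stood at 6.17, 17.43, 11.25 and 9.47 CPM in Col-0 controls and at 46.17, 155.97, 189.09 and 90.02 CPM under ozone in Col-0. The log2 fold change was 3.44 ± 0.56 (adjusted p = 2.75e-05, edgeR), higher than that of 95.72% of genes. In wrky25 wrky33 it went from 7.0, 10.79 and 7.95 CPM to 62.03, 144.8 and 142.62 CPM, and in wrky75 from 5.53, 28.02 and 7.39 CPM to 62.08, 202.78 and 210.91 CPM. The log2 fold changes were 3.76 ± 0.66 (adjusted p = 7.71e-05) and 3.54 ± 0.65 (adjusted p = 0.000102) in the edgeR fit. Control and ozone libraries did not overlap in any of the 3 genotypes. That was so in this direction for 29.3% of genes in Col-0, 33.9% in wrky25 wrky33 and 33.4% in wrky75. The shares of genes called were 69.7%, 65% and 68.1%.

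The libraries numbered 1 were low in WRKY18. Replicate 1 was the lowest library in 6 of 6 groups for WRKY18, against 3 of 6 for WRKY40 and 3 of 6 for WRKY60. The share of all genes with that pattern was not counted, so it is a description. Over all genes tested, residuals of the libraries numbered 1 correlated at 0.525 to 0.635 between ozone groups and at 0.363 to 0.409 between control groups. Between libraries of the same number, ozone over control was 7.48 to 16.8 for WRKY18 in Col-0, 8.86 to 17.9 in wrky25 wrky33 and 7.24 to 28.5 in wrky75. The same ratio for WRKY40 was 151.7 to 342.2, 111.7 to 288.3 and 42.8 to 768.2, and its width in wrky75 came from the control libraries, of which replicate 1 held 12 counts and replicate 2 held 226.

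**Figure D1:**
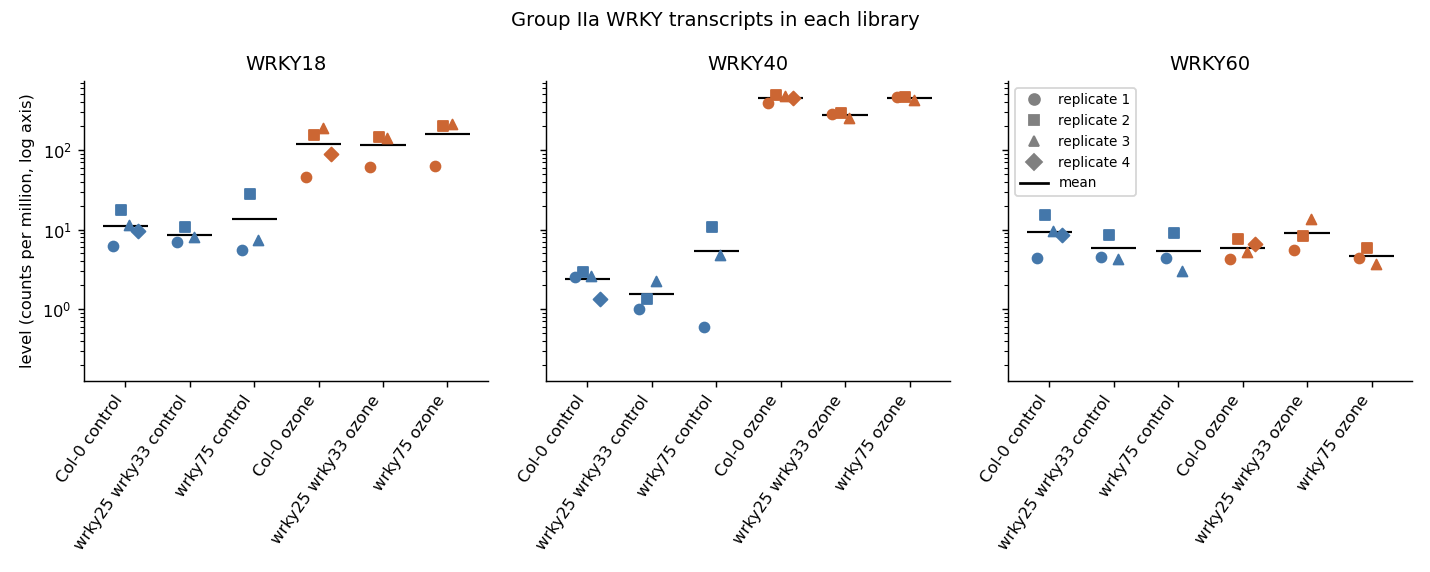
Level of WRKY18, WRKY40 and WRKY60 in each of the 20 libraries, in CPM on a log axis, by genotype and treatment (blue, control; orange, ozone); marker shapes are replicate numbers and black lines are group means. WRKY40 moves from at most 10.82 CPM to at least 254.57 CPM, replicate 1 (circles) is lowest for WRKY18 in every group, and WRKY60 libraries overlap between treatments.

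WRKY60, the closest relative of WRKY18 in sequence, was not called under ozone in any genotype. Its levels were 4.42, 15.14, 9.49 and 8.42 CPM in Col-0 controls and 4.26, 7.62, 5.16 and 6.53 CPM in Col-0 under ozone, and the groups overlapped. The log2 fold change was -0.67 ± 0.37 (adjusted p = 0.119, edgeR). All 4 same-numbered pairs had the lower value under ozone, with ratios of 0.503 to 0.964. The call changed in 2 alternatives: upper-quartile scaling gave -0.88 (adjusted p = 0.0403, edgeR), and leaving out Col-0 control replicate 1, the lowest control, gave -0.90 (adjusted p = 0.0351, edgeR). Upper-quartile scaling moved the median over all genes in Col-0 from -0.08 to -0.28 and the share of calls that were higher from 47.7% to 37.2%. Relative to that median WRKY60 was at -0.59 with the TMM scaling used throughout and at -0.60 with upper-quartile scaling, whereas WRKY18 was at 3.52 and WRKY40 at 7.66 under both. The medians moved alike in wrky25 wrky33 (from -0.09 to -0.27, with 47.8% and 37.6% of calls higher) and in wrky75 (from -0.11 to -0.29, with 47% and 38%).

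In wrky25 wrky33 WRKY60 stood at 4.57, 8.45 and 4.31 CPM without ozone and at 5.5, 8.27 and 13.51 CPM with it, a log2 fold change of 0.66 ± 0.43 (adjusted p = 0.193, edgeR). In wrky75 it stood at 4.37, 8.96 and 3.02 CPM and at 4.41, 5.94 and 3.7 CPM, a log2 fold change of -0.22 ± 0.45 (adjusted p = 0.673, edgeR). Libraries overlapped in both mutants. The difference between the ozone response of wrky25 wrky33 and that of Col-0 was 1.33 ± 0.57 on the log2 scale for WRKY60, with an unadjusted p of 0.0325 and an adjusted p of 0.473 in edgeR, so it did not pass. In that comparison 191 genes (0.957%) were called.

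The make-up of the group therefore changed with ozone. With counts divided by exon length, WRKY18 made up 47.6% ± 1.10, WRKY60 40.7% ± 4.68 and WRKY40 11.8% ± 5.75 of the 3 genes together in Col-0 controls (SD, n = 4). Under ozone WRKY40 made up 79.9% ± 7.57, WRKY18 19.1% ± 7.64 and WRKY60 1.02% ± 0.190 (SD, n = 4). In wrky25 wrky33 the share of WRKY40 went from 10.3% ± 5.05 to 70.3% ± 9.90, and in wrky75 from 20.4% ± 13.3 to 75.1% ± 11.1 (SD, n = 3 each). No library overlapped between treatments in any of these shares of WRKY40 or WRKY60. Dividing by coding length instead gave WRKY40 11.1% and 79.6% in Col-0.

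**Figure D2:**
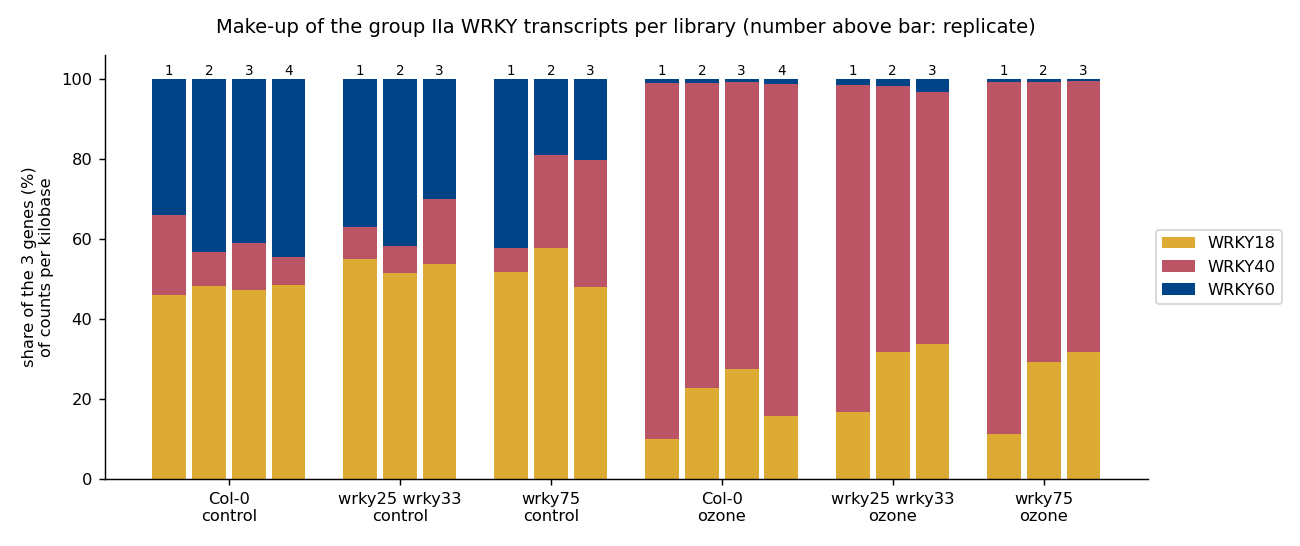
Share of WRKY18, WRKY40 and WRKY60 in the summed level of the 3 genes (%, counts per kilobase of exon), 1 bar per library with its replicate number above. Control bars are mostly WRKY18 and WRKY60, and ozone bars are mostly WRKY40, from 62.9% to 88.9%.

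The ratio of WRKY40 to WRKY18 per length rose by 3.86 on the log2 scale, averaged over genotypes: by 4.28 in Col-0, 3.87 in wrky25 wrky33 and 3.42 in wrky75. Its range was 0.147 to 0.435 in Col-0 controls and 2.61 to 8.75 in Col-0 under ozone. The ratio of WRKY60 to WRKY18 fell by 3.60, with changes of -3.91, -3.06 and -3.82. That ratio was narrow in Col-0 controls, at 0.738 to 0.916, and lay between 0.0283 and 0.0954 under ozone. For each ratio the exact permutation test, two-sided and with labels permuted within genotype, gave p = 7.14e-05, the smallest that 28000 assignments allow, and the adjusted p over the 2 ratios is the same. All 10 ozone libraries lay above all 10 control libraries for the first ratio, and below all 10 for the second.

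Within the WRKY family, 72 genes by RefSeq symbol, WRKY40 went from rank 35 to rank 2 by mean level per length in Col-0, from 38 to 3 in wrky25 wrky33 and from 23 to 2 in wrky75. Its level per length in Col-0 went from 1.98 to 378.8 reads-per-kilobase-per-million (RPKM), or from 0.560% to 14.1% of the summed WRKY level. WRKY18 moved from rank 11 to 9, 14 to 8 and 10 to 6, while WRKY60 moved from 15 to 43, 20 to 38 and 22 to 46. WRKY70, a group III factor of salicylic acid signalling, was first in each of the 6 groups, at 81.2 RPKM in Col-0 controls and 465.5 RPKM under ozone.

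Between genotypes none of the 3 genes was called in the edgeR fit over all libraries. The order of group means for WRKY18 was wrky25 wrky33, Col-0 and wrky75 within control (8.58, 11.1 and 13.7 CPM) and within ozone (116.5, 120.3 and 158.6 CPM), and neighbours overlapped except at the step between treatments. WRKY60 means lay between 4.68 CPM in wrky75 under ozone and 9.37 CPM in Col-0 controls, and every pair of neighbours in the order overlapped. Same-numbered libraries deviated together under ozone, and in some comparisons with Col-0 all their ratios went the same way. WRKY60 under ozone was higher in wrky25 wrky33 than in Col-0 in 3 of 3 pairs, with ratios of 1.085 to 2.616 (log2 fold change 0.63 ± 0.40). WRKY18 under ozone was higher in wrky75 than in Col-0 in 3 of 3 pairs, with ratios of 1.115 to 1.345 (0.40 ± 0.54). With the replicate block neither of these 2 passed (adjusted p = 0.188 and 1.0, edgeR). Without ozone WRKY60 was lower in wrky75 than in Col-0 in 3 of 3 pairs. Its ratios were 0.318 to 0.991 (adjusted p = 0.564 with the block, edgeR). WRKY40 was lower in wrky25 wrky33 than in Col-0 in 3 of 3 pairs with and without ozone. The ratios were 0.537 to 0.738 with ozone and 0.388 to 0.863 without it. The share of all genes with 3 pairs in 1 direction was not counted, so these directions are descriptions. For WRKY18 and WRKY60 the differences from Col-0 were at most 0.78 in size on the log2 scale with SE of 0.40 to 0.59, and the adjusted p was 0.533 or above.

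WRKY40 was lower in wrky25 wrky33 than in Col-0 under ozone in every library, at 254.57 to 290.67 CPM against 388.06 to 496.81 CPM. The log2 fold change was -0.71 ± 0.42 and did not pass (adjusted p = 0.496, edgeR), in a comparison where 1064 genes (5.33%) were called. Libraries that do not overlap in this direction were found for 7.34% of genes. When the fit held only the 7 ozone libraries of these genotypes, the log2 fold change was -0.73 ± 0.14 and passed (adjusted p = 0.0217, edgeR). The estimate was between -0.78 and -0.65 in all 13 alternatives tried, and the fit of the 7 libraries was the only one of them that gave a call. WRKY40 libraries of wrky75 under ozone did not overlap with those of wrky25 wrky33 either. The mutants were not tested against each other, and the share of all genes without overlap between them was not counted. That lack of overlap is therefore a description. WRKY40 in wrky75 under ozone differed from Col-0 by -0.00 ± 0.42 (adjusted p = 1.0, edgeR), with a sign that changed between alternatives.

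Without ozone WRKY40 was 1.19 ± 0.49 higher on the log2 scale in wrky75 than in Col-0 (adjusted p = 0.937, edgeR), with overlapping libraries. This value depended on 2 libraries: it was 1.72 (adjusted p = 0.0194, edgeR) without wrky75 control replicate 1 and 0.17 without wrky75 control replicate 2. Replicate 2 held the highest level of its group for WRKY18 (28.02 CPM), WRKY40 (10.82 CPM) and WRKY60 (8.96 CPM). WRKY18 in wrky75 controls was 0.30 ± 0.57 above Col-0 with all libraries and -0.78 without replicate 2. In control, 5 genes (0.0251%) were called for each mutant against Col-0, and 5 for wrky75 under ozone. The WRKY40 ozone response in wrky75 was -1.19 ± 0.65 relative to Col-0 on the log2 scale (adjusted p = 1.0, edgeR), -1.72 without wrky75 control replicate 1 and -0.18 without wrky75 control replicate 2. In that comparison 0 genes were called by edgeR, 349 had an unadjusted p under 0.05, and DESeq2 called 2.

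**Figure D3:**
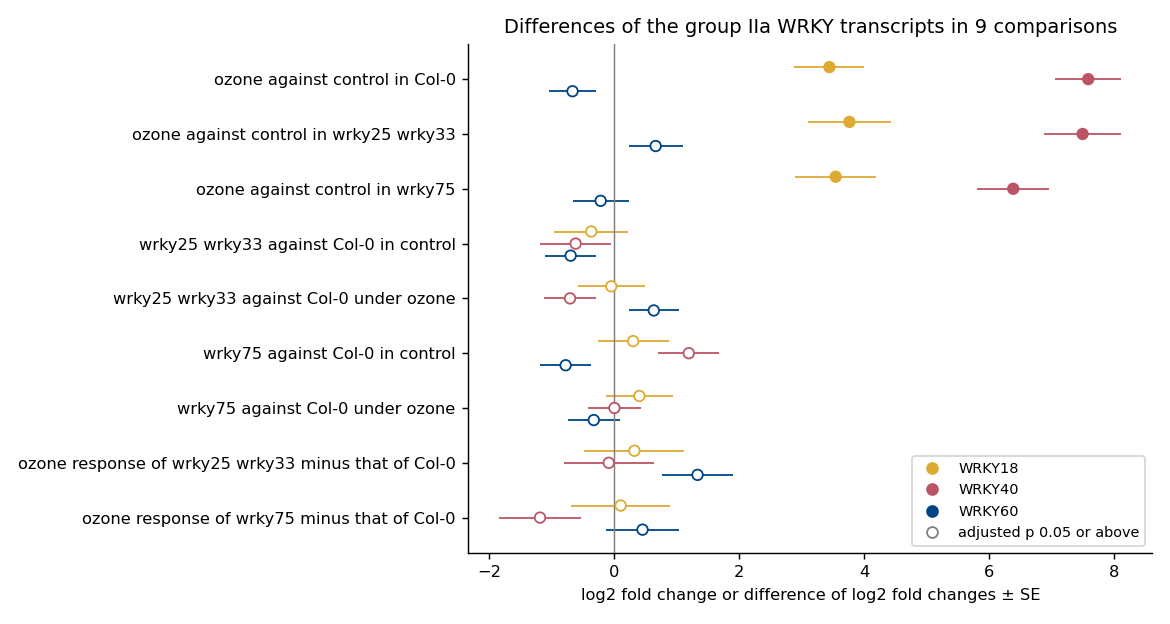
Log2 fold changes, or differences between log2 fold changes for the lowest pair of rows, of WRKY18, WRKY40 and WRKY60 in 9 comparisons, with SE from the edgeR fit. Filled points had an adjusted p under 0.05: WRKY18 and WRKY40 under ozone in 3 of 3 genotypes, and no other point.

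Other transcripts were compared with each member by Pearson correlation of log2 CPM over the 20 libraries, for the 14650 genes tested whose mean reached 5 CPM. These points share libraries and replicate numbers, so the values are descriptions. With group means taken away, WRKY18 varied most like AT3G58640 (r = 0.953), AT5G07910 (0.938) and WRKY70 (0.933). WRKY40 varied most like the ethylene response factors ERF2 (0.916) and ERF-1 (0.890) and the xyloglucan endotransglucosylase XTH18 (0.891). All of them rose under ozone in Col-0, from 3.02 to 102.7 CPM, from 2.82 to 143.8 CPM and from 0.520 to 48.9 CPM. WRKY40 itself spread most in wrky75 controls, on 12, 226 and 94 counts (coefficient of variation 95.5%). In the other groups that coefficient was 4.29% to 43.1%. The r values of WRKY40 with group means taken away therefore rest largely on those low-count controls. For WRKY60 the leading genes were NDA2 (0.914), an alternative NAD(P)H dehydrogenase of mitochondria, the chitin receptor kinase CERK1 (0.900) and the farnesylcysteine lyase gene FCLY (0.893). Among the members themselves r was 0.686 for WRKY18 with WRKY60, 0.485 for WRKY18 with WRKY40 and 0.225 for WRKY40 with WRKY60.

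With the treatment difference left in, the order changed. WRKY18 was closest to AT3G12760 (r = 0.987), WRKY70 (0.987) and AT1G17080 (0.986). WRKY40 was closest to AT1G66090 (0.993) and the NAC factors ATAF2 (0.993) and NAC102 (0.992). WRKY60 had no gene above 0.793, the value for the beta-glucosidase gene BGLU25, followed by AT3G48080 (0.792) and the receptor-like protein gene RLP49 (0.789), and its r was 0.142 with WRKY18 and -0.046 with WRKY40. WRKY70 was the gene shared by both WRKY18 rankings.

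The nearest relatives, the 8 group IIb factors, had the same residue as a group IIa member in 17.1% to 25.2% of alignment columns. Gap columns were counted, and the group IIb proteins are longer, at 374 to 553 codons against 271 to 310, which lowers these shares. Of the 8 factors, 5 had enough counts to be tested. Under ozone in Col-0 5 of 5 rose, where 33.3% of all genes rose. Their median log2 fold change was 1.94, against -0.08 over all genes. The 3 that were not tested, WRKY9, WRKY61 and WRKY72, were at 0.229 CPM or below in both Col-0 groups. WRKY6, a factor of senescence and phosphate responses, rose by 5.04 ± 0.23 on the log2 scale (adjusted p = 2.97e-12, edgeR). It went from 7.13 ± 0.785 to 234.6 ± 50.2 CPM (SD, n = 4). WRKY31 had the largest change, 6.53 ± 1.07 (adjusted p = 2.77e-05, edgeR), from 0.0350 to 3.85 CPM. Its Col-0 controls held 3 counts in all, and its Col-0 ozone libraries lay between 0.627 and 9.64 CPM, so the size of that change is uncertain. WRKY36 and WRKY47 rose by 1.94 ± 0.25 and 1.67 ± 0.24 on the log2 scale, from 0.350 to 1.36 CPM and from 5.54 to 17.6 CPM. In wrky25 wrky33, where 31.1% of all genes rose, 4 of 5 rose, with WRKY42 at -0.15 ± 0.31. In wrky75, where 32% rose, it was 5 of 5, or 4 with upper-quartile scaling, which lost WRKY42. Under ozone WRKY6 was lower in wrky25 wrky33 than in Col-0, at 103.8 to 133.1 CPM against 170.4 to 274.6 CPM (log2 fold change -0.94 ± 0.21, adjusted p = 0.0103, edgeR). It was the 1 member of 5 called lower there, as 3.77% of all genes were. WRKY31 (-1.26 ± 0.66, adjusted p = 0.39, edgeR) and WRKY42 (-0.86 ± 0.27, adjusted p = 0.0786, edgeR) were lower without a call. WRKY36 (0.20 ± 0.22) and WRKY47 (0.31 ± 0.24) were higher without a call. With the replicate number as a block WRKY31 passed too (adjusted p = 0.037, edgeR).

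Of 8 defence and jasmonate genes that earlier work in Arabidopsis linked to WRKY18 and WRKY40, 7 rose and 0 fell in Col-0, against 33.3% and 36.4% of all genes. Their median log2 fold change was 3.28, against -0.08 over all genes. All 4 lists, group IIb included, were chosen with earlier results of these data known, so such counts are descriptions. CYP71A13, a cytochrome P450 of camalexin synthesis, had the largest change (7.12 ± 0.65, from 4.69 to 653.3 CPM). It was followed by CYP81F2 of indole glucosinolate metabolism (5.24 ± 0.63), the jasmonate repressor gene JAZ8 (4.89 ± 0.48) and ICS1, the isochorismate synthase of salicylic acid production (3.75 ± 0.27, from 25.1 to 337.6 CPM). JAZ7 was at 0.165 and 0.776 CPM and did not pass (adjusted p = 0.0645, edgeR), but did with the replicate block (adjusted p = 0.0406). EDS1 rose by 1.24 ± 0.19, but it has a close neighbouring copy, AT3G48080, and how reads were shared between them is not given in the sources used here. CYP71A13 likewise has a close relative. In wrky25 wrky33 8 of 8 rose, against 31.1% of all genes, and in wrky75 7 of 8, against 32%, with JAZ7 at 0.25 ± 0.74.

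Under ozone CYP71A13 was the 1 of the 8 that passed the test between wrky25 wrky33 and Col-0, a comparison in which 5.33% of all genes were called and 3.77% were lower. It was at 22.8 ± 11.4 CPM (SD, n = 3) in the mutant against 653.3 ± 321.5 CPM (SD, n = 4) in Col-0. Its log2 fold change was -4.84 ± 0.65 (adjusted p = 0.000143, edgeR), and the libraries did not overlap, at 11.1 to 33.8 CPM against 244.0 to 1009.5 CPM. In wrky75 it stood at 713.2 to 977.7 CPM. With the replicate block ERF109, an ethylene response factor gene, passed as well (adjusted p = 0.0438, edgeR), at 1.51 CPM in wrky25 wrky33 and 0.544 CPM in Col-0.

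Of 7 abscisic acid genes reported as linked to WRKY40, 6 were tested, and in Col-0 2 rose and 3 fell. With 33.3% of all genes higher and 36.4% lower, a count of 2 higher is at the level of all genes. The median log2 fold change was -0.55, against -0.08 over all genes. ABI4, a transcription factor of abscisic acid signalling, was not tested and had 0 counts in both Col-0 groups. MYB2 rose by 3.29 ± 0.39, from 0.665 to 6.62 CPM, and ABI5, a bZIP factor, by 2.39 ± 0.55, from 0.332 to 1.77 CPM. CHLH, a subunit of the magnesium chelatase of chlorophyll synthesis, went from 4314.3 to 1295.2 CPM (log2 fold change -1.74 ± 0.24), RAB18, a dehydrin gene, from 19.7 to 8.01 CPM (-1.31 ± 0.29), and DREB1A from 0.927 to 0.0359 CPM, on few counts. The change of CHLH went along with that of the mesophyll markers. ABF4 was at 0.22 ± 0.13 (adjusted p = 0.148; 0.0304 with the replicate block, edgeR). In wrky25 wrky33 2 rose and 2 fell, against 31.1% and 33.9% of all genes, and in wrky75 2 rose and 2 fell, or 3 with upper-quartile scaling, against 32% and 36.1%. Between wrky25 wrky33 and Col-0 under ozone 0 of the 6 were called, where 5.33% of all genes were, and DREB1A was called with the replicate block (adjusted p = 0.00581, edgeR; 0.446 against 0.0359 CPM).

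Of 5 mitochondrial stress genes, of the kind that WRKY40 is known to repress, 4 rose under ozone in Col-0, against 33.3% of all genes, with a median log2 fold change of 4.19. They were AOX1D (7.06 ± 0.50, from 0.973 to 130.4 CPM) and AOX1A (2.91 ± 0.18, from 34.1 to 256.6 CPM), which encode alternative oxidases, the AAA ATPase gene BCS1 (4.49 ± 0.36), and NDB2, an external NAD(P)H dehydrogenase (4.19 ± 0.24, from 23.4 to 427.4 CPM). UPOX was at 3.08 and 3.57 CPM (adjusted p = 0.553, edgeR). In wrky25 wrky33 5 of 5 rose, against 31.1% of all genes, or 4 with upper-quartile scaling, which lost UPOX, and in wrky75 4 of 5, against 32%. Between wrky25 wrky33 and Col-0 under ozone 0 of 5 were called in the fit without a block, where 5.33% of all genes were. With the replicate block, which called 2394 of the 19954 genes, 3 were lower, AOX1D (adjusted p = 0.000595; 51.5 against 130.4 CPM), BCS1 (0.0403; 129.2 against 255.2 CPM) and NDB2 (0.0155; 281.0 against 427.4 CPM), and UPOX was higher (0.0172; 5.65 against 3.57 CPM), by edgeR. In both control comparisons and in wrky75 under ozone, 0 members of these 4 lists were called against Col-0, where 0.0251% of all genes were, so a count of 0 is no result about the lists.

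**Figure D4:**
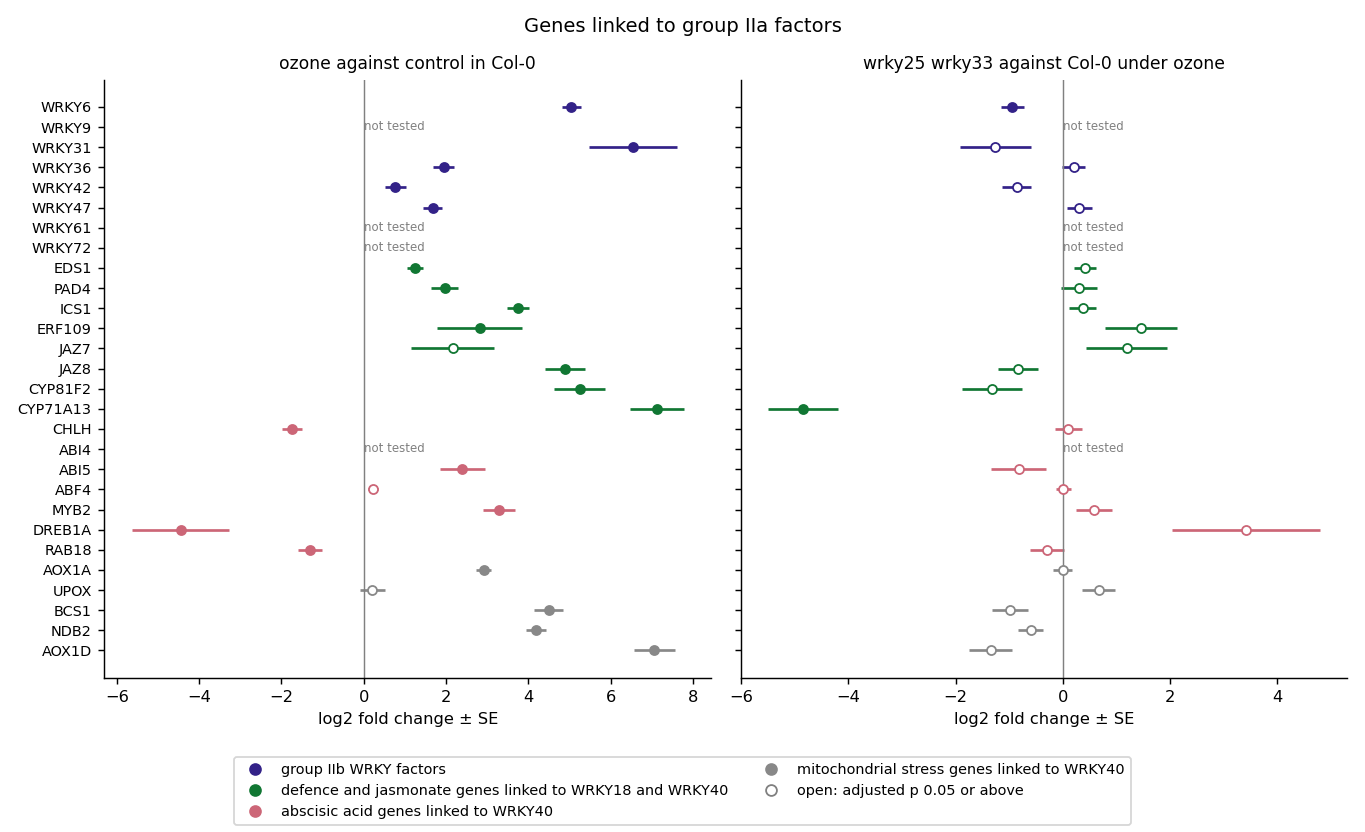
Log2 fold change with SE of the 24 genes tested among 28 in 4 lists (WRKY9, WRKY61, WRKY72 and ABI4 are marked as not tested), for ozone against control in Col-0 (left) and for wrky25 wrky33 against Col-0 under ozone (right), with separate scales. Filled points had an adjusted p under 0.05; on the right these are WRKY6 at -0.94 and CYP71A13 at -4.84.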

How the data were processed

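The authors deposited raw read counts for each gene. The submitters' processing notes name TopHat2, HTSeq, SAMtools, FastQC and the TAIR10 build. Tool versions and the counting's strand option were not given in the sources used here. The files held 33602 genes, and 7167 were at 0 in every library. Groups and replicate numbers came from the sample titles.

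Counts were analysed with edgeR 4.0.16 in R 4.3.3: filterByExpr on the 6 groups left 19954 genes, TMM factors scaled the libraries, and all 20 libraries entered 1 fit of group means with quasi-likelihood F-tests and Benjamini-Hochberg adjustment (threshold 0.05). CPM are counts-per-million of the TMM-scaled library. On simulated counts for ozone in Col-0 (19360 genes), 89% of genes changed by 1 on the log2 scale and 100% of those changed by 2 were recovered. In the simulation 6 unchanged genes were called. It changed 100 genes by each size, up and down alike, left out genes with low counts and held no effect of replicate number. In the data 69.7% of genes were called in this comparison, so these rates do not carry over to the data. Ratios used a pseudocount of 0.5 counts. No pair of replicates agreed within sampling noise.

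Gene models, symbols and sequences came from RefSeq on TAIR10.1, read with Biopython 1.88 in Python 3.11.15. Its nuclear genes matched 98.54% of those in the files by locus. Exon lengths were limited to the span counted. Counting error only, not spread between pools, is covered by the depth.

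Family membership defines the members, but this family and the gene lists were chosen with earlier results of these data known. All 3 members are given in every library. In each list up to 4 called genes with the largest change in Col-0 are named, then members without a call, and other members are named where a value changed a count. For each member the 3 genes most like it by each correlation are named.

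Replicate numbers are shared across groups. Residuals of same-numbered libraries correlated above 0.1 in every pair in 4 of 7 comparisons: Col-0 ozone against control (0.106 to 0.361), wrky25 wrky33 against Col-0 in control (0.15 to 0.409) and under ozone (0.276 to 0.525), and wrky75 against Col-0 under ozone (0.428 to 0.635). The labels do not say what a number marks. Alternatives were upper-quartile scaling, no low-count filter, a replicate block, a fit of only the groups compared, Col-0 replicates 1 to 3 only, DESeq2 1.42.0, another pseudocount, and leaving out each library.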

Additional observations from a re-analysis of the deposited data

Results flagged for a closer look

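In groups of 4 libraries, 54 sets of values were tested for a library far from the others by Dixon's criterion, which chance meets in about 1 of 20 groups, and 4 met it. None was a value of WRKY18, WRKY40 or WRKY60. RAB18 was highest in Col-0 replicate 4 both in control (30.6 CPM, with the others at 15.25 to 17.29) and under ozone (15.1 CPM, with the others at 5.256 to 5.918). UPOX was highest in Col-0 control replicate 4 (5.60 CPM, with the others at 2.005 to 2.459). ABI5 was highest in Col-0 ozone replicate 3 (3.61 CPM, with the others at 0.929 to 1.27).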

How the results depend on the processing

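The ozone calls of WRKY18 and WRKY40 in 3 of 3 genotypes and both ratios kept their direction and their call in all alternatives run. Log2 fold changes ran from 3.13 to 4.62 for WRKY18 and from 5.86 to 7.88 for WRKY40, and the ratio changes from 3.62 to 4.04 and from -3.78 to -3.44. WRKY60 in Col-0 passed with upper-quartile scaling (-0.88), and WRKY40 in wrky25 wrky33 against Col-0 under ozone passed in the fit of those groups only (-0.73). WRKY40 in wrky75 against Col-0 under ozone, at -0.00, turned to 0.02 with upper-quartile scaling, 0.02 without a low-count filter, 0.01 in the fit of those groups only and 0.01 with DESeq2. The WRKY40 response of wrky25 wrky33 minus that of Col-0, at -0.09, was 0.11 with Col-0 replicates 1 to 3 only. The cause was not tested.

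The replicate block, a pairing by number, changed no call of the 3 members. For ozone against control, residuals of same-numbered libraries correlated at -0.073 to 0.056 in wrky25 wrky33 and at -0.012 to 0.253 in wrky75. There the block added ABF4 as higher in wrky25 wrky33 (adjusted p = 0.0162, edgeR) and in wrky75 (0.0395), and DREB1A as lower in wrky75 (0.00218). It called 2394 genes in place of 1064 for wrky25 wrky33 against Col-0 under ozone, 10 in place of 5 for wrky75 under ozone, and 618 in place of 191 for the wrky25 wrky33 response. Fits of only the groups compared called 1 gene for wrky25 wrky33 in control, 707 under ozone and 113 for its response. DESeq2 called 19 and 27 genes for the mutants in control, 8 for wrky75 under ozone, 372 for the wrky25 wrky33 response and 2 for that of wrky75.

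Leaving out 1 library at a time gave these ranges. For WRKY18 they were -0.28 to 1.18 for the wrky75 response minus that of Col-0, -0.32 to 0.26 for wrky25 wrky33 under ozone and -0.78 to 0.68 for wrky75 in control. For WRKY40 they were -0.33 to 0.30 for the wrky25 wrky33 response, -1.72 to -0.18 for that of wrky75, 0.17 to 1.72 for wrky75 in control and -0.07 to 0.04 for wrky75 under ozone. For WRKY60 under ozone they were -0.90 to -0.34 in Col-0 and -0.51 to 0.34 in wrky75. Genes called were 76 to 226 for the wrky25 wrky33 response, 1 to 7 and 583 to 1171 for wrky25 wrky33 in control and under ozone, and 3 to 64 for wrky75 in control. WRKY40 rested on 12 to 226 counts in a control library, which limits its fold change under ozone.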
